A study of Mus musculus with 2 samples.

Results

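The genes of the COPI and COPII transport coats, their cargo receptors, and the tethers and SNARE proteins that receive their vesicles were compared between 2 RNA-seq libraries, each made from cultures labelled as neonatal mouse cardiomyocytes, the muscle cells of the newborn heart. In 1 library the piRNA FERPIR had been knocked down with an antagomir, a modified antisense oligonucleotide that blocks a small RNA, and the other came from cells given a negative control. Both carry the same further treatment label, PBS. Neither strain, sex, dose nor time after transfection is given in the labels. The genes were taken by symbol from a list of 44 names covering the machinery, and all 44 had a row among the 10982 genes of the deposited table. The names were chosen by role, with earlier results of these data known, and were sorted here into 12 genes of the COPII coat and its assembly, 11 of the COPI coat with its ARF GTPases, 15 cargo receptors, and 6 tethers and SNAREs. The level of FERPIR itself was not analysed here.

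Newly made secretory and membrane proteins leave the endoplasmic reticulum (ER) in vesicles coated with COPII. The GTPase SAR1 starts the coat, SEC23 and SEC24 form its inner layer and pick cargo, and SEC13 and SEC31 form its outer cage. COPI coats, recruited by ARF GTPases, carry escaped ER proteins and cargo receptors back from the Golgi apparatus. Cells raise transcription of this machinery when the load on the ER grows, partly through the factors XBP1 and ATF6, and cultured heart cells use it to export matrix proteins and natriuretic peptides.

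Sequence near the start sites was read for 39 of the 44 genes, which had a promoter window in RefSeq on build GRCm38.p6, from 250 bases before to 50 bases after each start. The letters TGACGTGG, which contain the core that XBP1 and ATF6 are known to bind, stood on either strand in the windows of 7 of the 39 genes (17.9%), against 88 of 8537 genes of the table with a window (1.03%) and 193 of all 27025 genes with one (0.714%). The stretches are shown because the letters are far less common in the other genes, and the list was not drawn up from sequence. Each is printed on the strand that holds the letters, with the letters in capitals.
Arf1: cggcaggcgcTGACGTGGctgccgtcag
Copb1: agtccttggcTGACGTGGaagggggcgg
Copb2: gccaacccacTGACGTGGaacttccggg
Kdelr3: ggccgcgcggTGACGTGGcggggcggcc
Sec23a: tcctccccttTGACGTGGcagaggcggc
Sec24d: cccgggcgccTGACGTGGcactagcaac
Counted along the gene, the letters begin 84 bases before the start of Arf1 (chr11:59228229-59228256), 28 bases before that of Copb1 (chr7:114254691-114254718), 7 before that of Copb2 (chr9:98563714-98563741), 30 before that of Kdelr3 (chr15:79516368-79516395) and 26 before that of Sec24d (chr3:123267460-123267487). In Sec23a (chr12:59011994-59012021) they lie just after the start. The printed strand is plus for Copb1 and Sec24d and minus for the others. The seventh gene, Stx5a, held the letters on both strands just after its start.

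Promoters of the members with the largest differences between the libraries, Mia3 and Sec16a, are shown next, since they are the members past the 2-fold limit. Each is given 5′ to 3′ on the minus strand, which is the strand of the gene, as the 250 bases before the start, with the letters TGACGT in capitals.
Mia3: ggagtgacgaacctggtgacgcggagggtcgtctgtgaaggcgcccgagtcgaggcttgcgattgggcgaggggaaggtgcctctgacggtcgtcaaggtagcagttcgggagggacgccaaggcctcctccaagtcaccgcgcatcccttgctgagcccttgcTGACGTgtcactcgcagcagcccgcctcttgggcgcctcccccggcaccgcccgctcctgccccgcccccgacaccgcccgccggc
Sec16a: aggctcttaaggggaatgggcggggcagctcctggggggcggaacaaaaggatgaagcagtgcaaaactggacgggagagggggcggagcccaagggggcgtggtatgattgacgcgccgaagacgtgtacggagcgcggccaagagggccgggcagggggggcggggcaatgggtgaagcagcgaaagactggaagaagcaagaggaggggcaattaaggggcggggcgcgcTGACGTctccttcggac
The Mia3 stretch is chr1:183369566-183369815 with TGACGT beginning 86 bases before the start, and the Sec16a stretch is chr2:26445217-26445466 with TGACGT beginning 17 bases before the start. Their GC contents were 70.4% and 65.2%. The shorter TGACGT, which every TGACGTGG contains, was present in 16 of 39 windows (41.0%), against 14.0% of the 8537 table genes and 8.37% of all 27025. CCACG, which the reverse complement of TGACGTGG also contains, was present in 30 of 39 (76.9%), against 53.1% and 35.5%. The full ER stress element ERSE and the related ERSE-II were found in 0 of 39 windows, and they were rare everywhere, in 0.141% and 0.0937% of the table genes. TGATGNAA, letters that ATF4 dimers are known to bind, stood in 1 window, that of Kdelr1, or 2.56% against 2.69% of the table genes. Genes with TGACGTGG or TGACGT did not have the lower median log2 ratio. It was -0.14 over the 7 genes with TGACGTGG and -0.38 over the other 32. For TGACGT it was -0.20 over the 16 genes with it, Mia3 and Sec16a among them, and -0.38 over the other 23. A part of XBP1 or ATF6 in the ratios was not tested. These matches describe letters only, and binding was not measured.

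Values are FPKM, fragment numbers divided by transcript length and by sequencing yield, a level that can be compared between genes. The log2 ratio given throughout is log2 of (antagomir FPKM + 1) over (control FPKM + 1), so a negative value means lower in the antagomir library, and folds are on the same scale, which understates differences of low genes. With 1 library per group there was no replicate, test or error, and every difference describes these 2 libraries. The FPKM of all genes summed to 312806 in the antagomir library and 295404 in the control library, with a median of 6.29 per gene in the antagomir library and 6.72 in the control library. Read numbers cannot be recovered from them. In bulk RNA fewer cells of a type and less RNA per cell cannot be told apart.

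The cell label was checked against 20 cardiomyocyte markers, of which 7 had values. Myh6, Myh7, Actc1, Actn2, Ttn, Myl2, Ryr2 and 6 others were without a row, and a missing row is not read as low expression. Among genes with a row, the larger of the 2 values was nowhere below 0.501 FPKM. Why rows are missing was not tested. Most of the 7 were higher in the antagomir library, with a median log2 ratio of 0.70. At least 1.5-fold higher were 4, among them Tnnt2 (1.89) and Tnnc1 (1.88), and 1 was at least 1.5-fold lower. In the control library the 4 lay below the median gene (6.72 FPKM). Antagomir and control FPKM were 8.19 and 1.48 for Tnnt2, and 18.9 and 4.39 for Tnnc1. For Tnni1 they were 3.06 and 1.04, and for Myl4 2.01 and 0.849. The sum of the 7 was nevertheless 73.8 FPKM in the antagomir library and 95.8 FPKM in the control library. Most of the control sum was Atp2a2, which had 20.0 FPKM in the antagomir and 67.5 FPKM in the control library. Of 14 fibroblast markers 10 had values, summing to 5227 FPKM in the antagomir library and 2728 FPKM in the control library, with S100a4 alone at 4125 FPKM in the antagomir library and 1484 FPKM in the control library. The fibroblast markers had a median log2 ratio of -0.43, with 3 at least 1.5-fold lower and 1 at least 1.5-fold higher, and Col1a1 had 24.2 FPKM in the antagomir library and 58.5 FPKM in the control library. Of 10 endothelial markers 1 had a value, Eng, at 0.875 FPKM in the antagomir library and 0.791 FPKM in the control library. Of 11 macrophage and blood markers 4 had values, summing to 42.7 FPKM in the antagomir library and 31.3 FPKM in the control library, with a median log2 ratio of 0.35. Of 8 smooth muscle markers 6 had values, summing to 1320 FPKM in the antagomir library and 1680 FPKM in the control library. That sum followed Acta2, with 845 FPKM in the antagomir and 1304 FPKM in the control library, whereas the median log2 ratio of the 6 was 0.39, with Tagln (1.01) the highest. The labelled cell type therefore rested on few of its defining markers, and the part of other cells in the results below was not tested.

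Trafficking genes were lower in the antagomir library more often than higher. Of the 44 genes 35 had a log2 ratio below 0 (79.5%, against 54.0% of the 10201 genes whose larger value reached 1 FPKM), and the median was -0.38, against -0.05 over all genes. At least 1.5-fold lower were 12 of 44 genes, or 27.3%, against 13.4% of all genes. At least 1.5-fold higher was none of the 44, against 10.8% of all genes. At least 2-fold lower were 2 of 44, or 4.55%, against 3.79% of all genes, and none was at least 2-fold higher, against 2.88%. The lower count depended on the setting: with a pseudocount of 0.1 it was 5 of 44 (11.4%), against 6.22% of all genes, and as TPM 5 of 44, against 6.78%. All 44 genes reached 1 FPKM in the higher library and 41 reached 5 FPKM in both. The 44 together took 0.504% of all FPKM in the antagomir library and 0.634% in the control library. With both libraries rescaled to the same total (TPM), 15 of 44 genes (34.1%, against 20.0% of all genes) passed the lower 1.5-fold limit. The pseudocount stayed 1 although TPM values are larger than FPKM here, so it also weighed less on low genes. The shift is therefore not that of the total alone. Over the table TPM put 2037 genes past the lower and 1071 past the upper limit, where FPKM put 1364 and 1104 there.

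**Figure D1:**
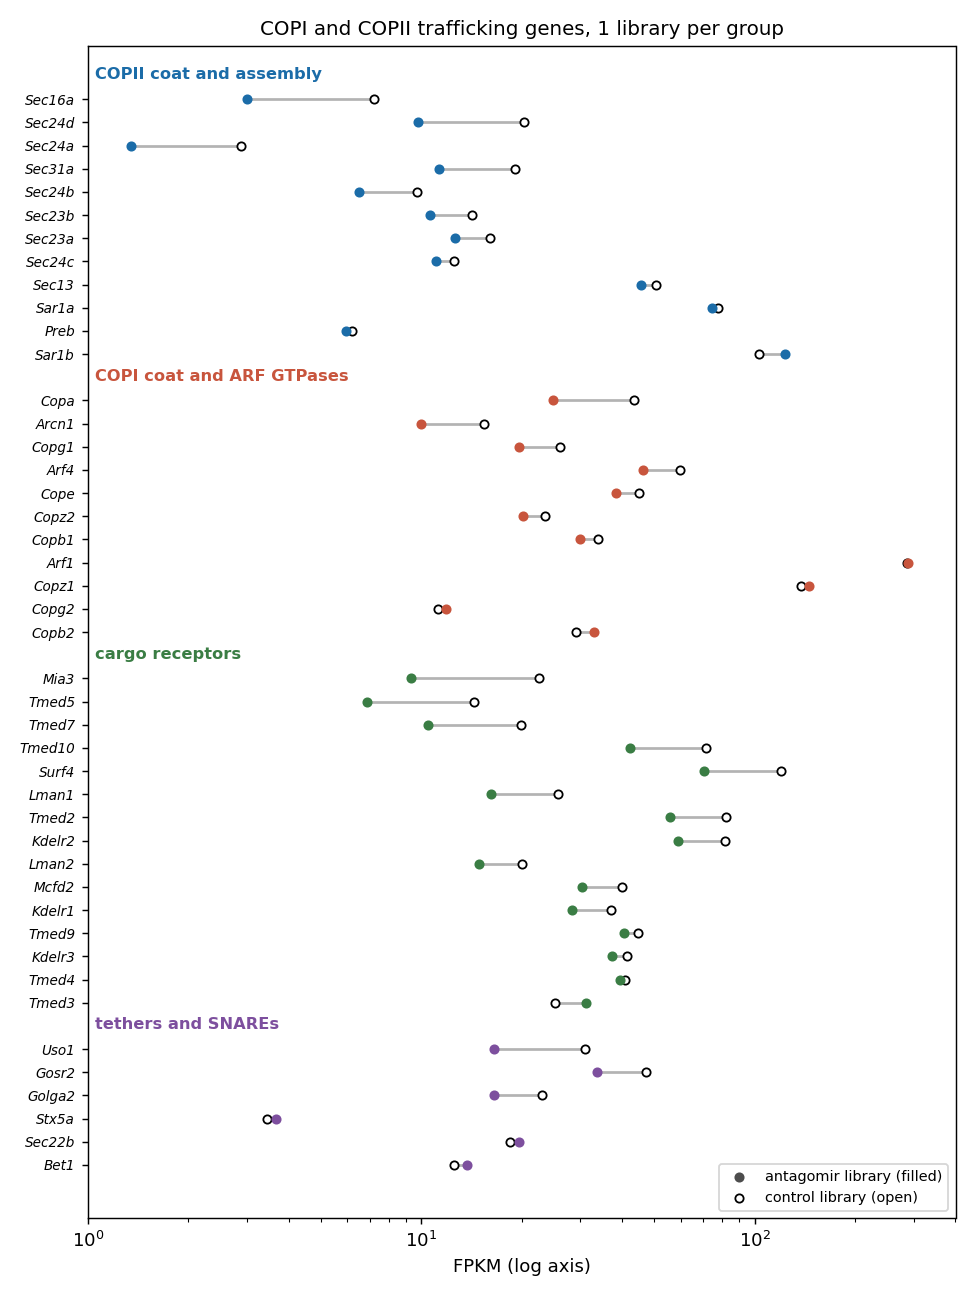
Level of each of the 44 genes in FPKM (log axis), with the antagomir library as filled and the control library as open circles, sorted within 4 role groups by log2 ratio. Filled circles lie to the left of open ones for 35 genes, with the widest gaps at Mia3 and Sec16a, and Arf1 and Copz1 had the highest levels in both libraries.

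In the COPII group the large coat and scaffold subunits had lower values in the antagomir library, while the GTPases that start the coat were closer between the libraries. The median log2 ratio of the 12 genes was -0.36, with 11 below 0 (91.7%, against 54.0% of all genes) and 4 at least 1.5-fold lower (33.3%, against 13.4%). Sar1b, the GTPase that opens coat assembly, had 123 FPKM in the antagomir library and 103 FPKM in the control library, the single COPII gene with a higher value, at 1.19-fold. Its paralog Sar1a had 74.4 FPKM in the antagomir library and 77.8 FPKM in the control library, a log2 ratio of -0.06. The 2 GTPases had the highest levels of the group in either library. Preb, the ER membrane factor that loads SAR1 with GTP, had 5.93 FPKM in the antagomir and 6.20 FPKM in the control library, a log2 ratio of -0.06. Of its 50-base stretches 21.6% are shared with Abhd1 on the opposite strand. With the trend of the log2 ratio over transcript length and GC content removed, Sar1b was at 0.04 and Preb at 0.11. Then 2 COPII genes were above 0.

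Sec16a, the scaffold that organizes ER exit sites, had 3.00 FPKM in the antagomir library and 7.23 FPKM in the control library, 2.06-fold lower with a log2 ratio of -1.04. Its gene lies on chromosome 2 from 26409431 to 26445216 on build GRCm38, with a longest annotated transcript of 8797 nucleotides, the longest among the 44. This was the lowest ratio of the COPII group, and 3.41% of all genes had a lower one. With the trend of the log2 ratio over transcript length and GC content removed it was -0.85.

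The inner coat differed between paralogs. Sec24d, a cargo-binding subunit, had 9.76 FPKM in the antagomir library and 20.3 FPKM in the control library, 1.98-fold lower and just short of 2-fold. Sec24a had 1.35 FPKM in the antagomir library and 2.89 FPKM in the control library, 1.66-fold lower at the lowest level of all 44 genes. Sec24b had 6.53 FPKM in the antagomir and 9.72 FPKM in the control library, a log2 ratio of -0.51. Sec24c, the remaining paralog, had 11.1 FPKM in the antagomir library and 12.5 FPKM in the control library, a log2 ratio of -0.16, so all of the Sec24 genes were lower but by unlike amounts. The order of the paralogs by level therefore differed: Sec24d held 34.0% of the summed Sec24 FPKM in the antagomir library and 44.7% in the control library, and Sec24c held 38.6% in the antagomir library and 27.5% in the control library. The summed level was 28.7 FPKM in the antagomir library and 45.4 FPKM in the control library.

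SEC23, the inner coat subunit that stimulates GTP hydrolysis by SAR1, showed no such shift. Sec23a had 12.6 FPKM in the antagomir library and 16.1 FPKM in the control library, and Sec23b 10.6 FPKM in the antagomir and 14.2 FPKM in the control library, with log2 ratios of -0.33 and -0.38. Sec23a held 54.3% of their sum in the antagomir library and 53.2% in the control library. Sec31a, of the outer cage, had 11.3 FPKM in the antagomir library and 19.1 FPKM in the control library, 1.64-fold lower. Its partner Sec13, which also belongs to the nuclear pore, had 45.5 FPKM in the antagomir and 50.6 FPKM in the control library, a log2 ratio of -0.15, so the cage subunits differed in size of ratio.

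**Figure D2:**
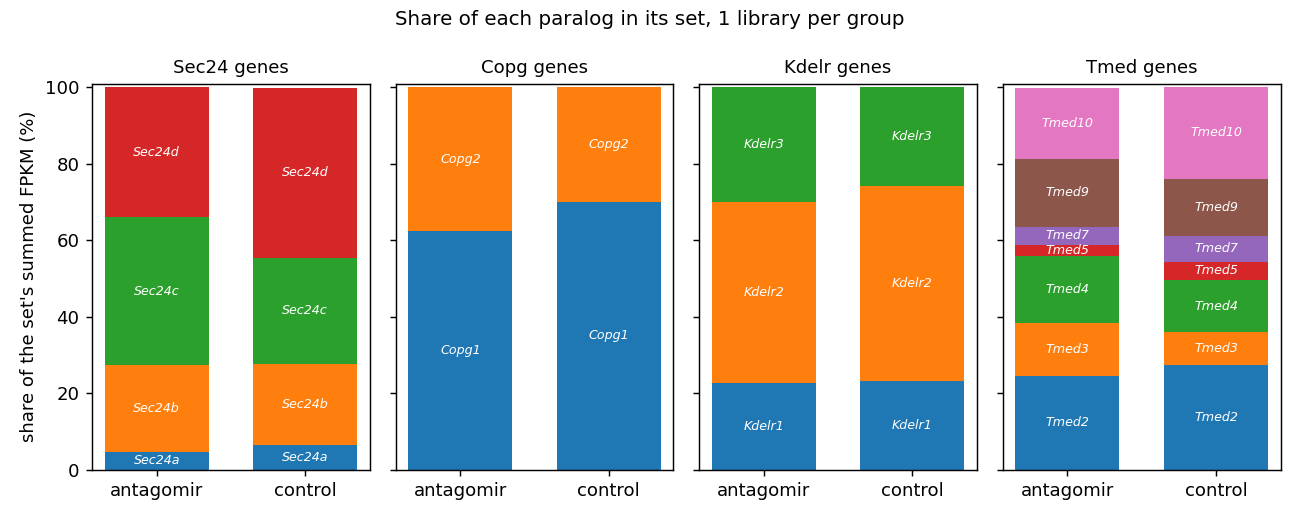
Share of each paralog in the summed FPKM of its set (%), as stacked bars with the antagomir library left of the control library, for the Sec24, Copg, Kdelr and Tmed genes. Sec24d is the largest part of the Sec24 bar in the control library (44.7%) and Sec24c in the antagomir library (38.6%), while the Kdelr shares are alike in both.

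The COPI coat lay closer to the table as a whole. The median log2 ratio of the 11 genes was -0.21. Of these, 7 were below 0 (63.6%, against 54.0% of all genes) and 1 was at least 1.5-fold lower (9.09%, against 13.4%). Copa, the subunit that with Copb2 binds dilysine retrieval signals, had 24.8 FPKM in the antagomir library and 43.5 FPKM in the control library, 1.73-fold lower. Ncstn on the opposite strand shares exon positions with it. Copb2 had 32.9 FPKM in the antagomir library and 29.2 FPKM in the control library, 1.13-fold higher. These 2 subunits, which form one subcomplex of the coat, thus lay at opposite ends of the group. Cope, the third of that subcomplex, had 38.4 FPKM in the antagomir and 45.0 FPKM in the control library, a log2 ratio of -0.22.

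In the other subcomplex, Arcn1, the delta subunit, had 9.97 FPKM in the antagomir library and 15.4 FPKM in the control library, a log2 ratio of -0.58, just short of 1.5-fold, and shares 11.9% of its 50-base stretches with other genes. Copb1, the beta subunit, had 29.9 FPKM in the antagomir and 34.0 FPKM in the control library, a log2 ratio of -0.18. The gamma subunit is made from 2 genes, and they differed in sign. Copg1 had 19.7 FPKM in the antagomir library and 26.1 FPKM in the control library, and Copg2 had 11.9 FPKM in the antagomir library and 11.2 FPKM in the control library, with log2 ratios of -0.39 and 0.08. Both share sequence with other genes, 16.6% and 22.2% of their stretches, Copg2 with its imprinted neighbour Mest on the opposite strand. Of the zeta subunits, Copz1 had 145 FPKM in the antagomir library and 138 FPKM in the control library, and Copz2 had 20.2 FPKM in the antagomir and 23.5 FPKM in the control library, so Copz1 supplied 87.7% of their sum in the antagomir library and 85.5% in the control library.

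Of the GTPases that recruit COPI, Arf1 was level between the libraries and Arf4 was lower in the antagomir library. Arf1 had 288 FPKM in the antagomir library and 286 FPKM in the control library, the highest level of the 44 genes in both, and shares 10.3% of its stretches with other genes. Arf4 had 46.1 FPKM in the antagomir library and 59.7 FPKM in the control library, a log2 ratio of -0.37. The small positive ratios of Arf1 (0.01) and Copz1 (0.06) became -0.07 and -0.02 when rescaled to TPM, while that of Copg2 became 0.00.

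Cargo receptors had the lowest median of the 4 groups, -0.46 over 15 genes. Of these, 14 were below 0 (93.3%, against 54.0% of all genes) and 6 at least 1.5-fold lower (40.0%, against 13.4%). Without genes with overlapping exons the order turned round, with a median of -0.40 over 10 cargo receptors and -0.51 over 9 COPII genes. At least 1.5-fold lower were then 2 of the 10 (20%) and 4 of the 9 (44.4%), against 13.9% of all genes. Their summed level was 492 FPKM in the antagomir library and 686 FPKM in the control library, or 0.157% of all FPKM in the antagomir library and 0.232% in the control library. Mia3, which encodes TANGO1, the ER exit site receptor for bulky collagens, had 9.31 FPKM in the antagomir library and 22.5 FPKM in the control library, 2.28-fold lower. That log2 ratio, -1.19, was the lowest of all 44 genes, and 2.34% of all genes had a lower one. Mia3 lies on chromosome 1 from 183326725 to 183369553, and its exons overlap no other gene. Surf4, a receptor for soluble secreted proteins, had 70.7 FPKM in the antagomir library and 119.9 FPKM in the control library, 1.69-fold lower, with an exon overlap with Surf2 on the opposite strand.

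The p24 family, encoded by the Tmed genes, cycles between ER and Golgi and helps export GPI-anchored proteins. Tmed5 had 6.89 FPKM in the antagomir library and 14.4 FPKM in the control library, 1.95-fold lower. Tmed7 had 10.5 FPKM in the antagomir and 19.9 FPKM in the control library, 1.82-fold lower, and Tmed10 had 42.2 FPKM in the antagomir and 71.5 FPKM in the control library, 1.68-fold lower. Exons of all of these overlap another gene, Mtf2, Ticam2 and an antisense gene in turn. Tmed2 had 55.7 FPKM in the antagomir library and 82.0 FPKM in the control library, 1.46-fold lower and just under the limit, with 27.6% of its stretches found in other genes as well.

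The remaining p24 genes were closer between the libraries. Tmed9 had 40.5 FPKM in the antagomir library and 44.7 FPKM in the control library, and Tmed4 had 39.4 FPKM in the antagomir and 40.8 FPKM in the control library, with log2 ratios of -0.14 and -0.05. Tmed3 had 31.2 FPKM in the antagomir library and 25.1 FPKM in the control library, 1.24-fold higher, the single cargo receptor above 0. Tmed3 accordingly made up 13.8% of the summed p24 FPKM in the antagomir library and 8.41% in the control library, and Tmed10 made up 18.6% in the antagomir library and 24.0% in the control library. The sum was 226 FPKM in the antagomir library and 298 FPKM in the control library.

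KDEL receptors return escaped ER chaperones from the Golgi. Kdelr2 had 58.7 FPKM in the antagomir library and 81.2 FPKM in the control library, a log2 ratio of -0.46. Kdelr1 had 28.4 FPKM in the antagomir and 37.2 FPKM in the control library, and Kdelr3 had 37.4 FPKM in the antagomir and 41.3 FPKM in the control library, with log2 ratios of -0.38 and -0.14. The 3 receptors were lower together, none of them by 1.5-fold, and Kdelr2 was the most abundant in both libraries, at 47.1% of the sum in the antagomir library and 50.9% in the control library. Lman1, the lectin that with Mcfd2 exports coagulation factors, had 16.2 FPKM in the antagomir library and 25.8 FPKM in the control library, 1.56-fold lower and the member just inside the limit. Mcfd2 had 30.3 FPKM in the antagomir and 40.0 FPKM in the control library, a log2 ratio of -0.39. Lman2, a related lectin, had 14.9 FPKM in the antagomir library and 20.0 FPKM in the control library, a log2 ratio of -0.40.

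Among tethers and SNAREs the values split into a lower and a level set. Uso1, which encodes the coiled-coil tether p115, had 16.5 FPKM in the antagomir library and 31.0 FPKM in the control library, 1.83-fold lower. Its Golgi binding partner Golga2, which encodes GM130, had 16.5 FPKM in the antagomir library and 23.0 FPKM in the control library, a log2 ratio of -0.46. Gosr2, a SNARE of the Golgi, had 33.7 FPKM in the antagomir and 47.2 FPKM in the control library, a log2 ratio of -0.47. The SNAREs that pair with it were not lower. Sec22b had 19.7 FPKM in the antagomir library and 18.5 FPKM in the control library, a log2 ratio of 0.09. Bet1 had 13.7 FPKM in the antagomir and 12.5 FPKM in the control library, and Stx5a had 3.68 FPKM in the antagomir and 3.45 FPKM in the control library, with log2 ratios of 0.12 and 0.08. The median of the 6 genes was -0.19, and over the 3 genes free of exon overlaps it was 0.09, so this group had no single direction.

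**Figure D3:**
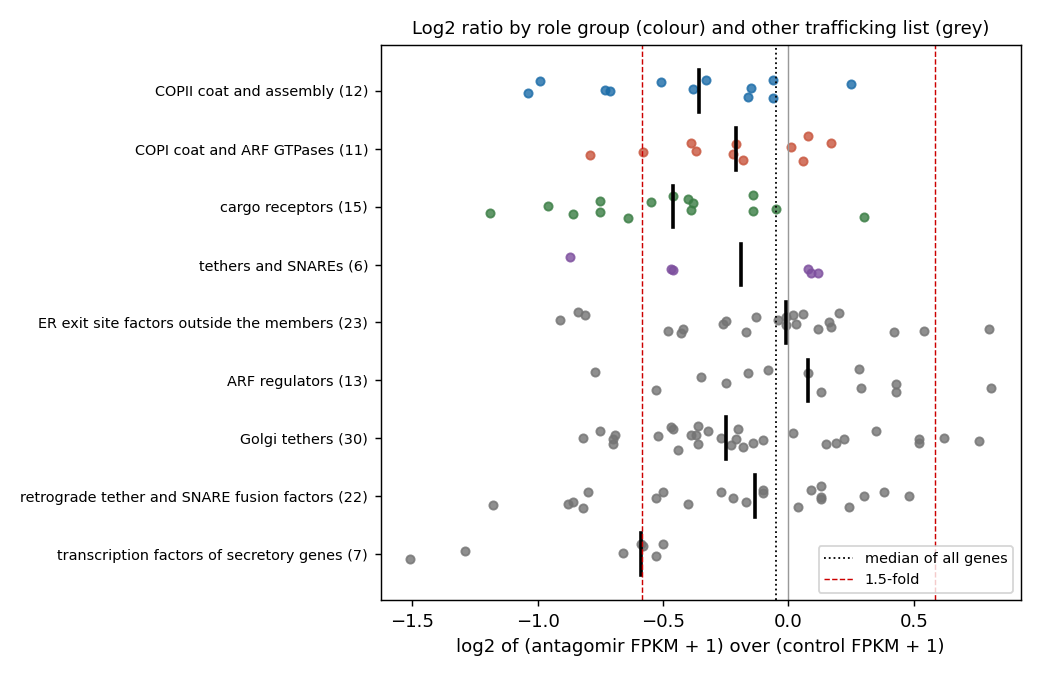
Log2 ratio of each gene (horizontal axis, antagomir over control) in the 4 role groups in colour and in 5 lists of other trafficking genes in grey, with the number of genes in brackets, short black lines for list medians, a dotted line at the median of all genes and dashed lines at 1.5-fold. With genes of overlapping exons included, cargo receptors have the lowest median of the role groups, -0.46. No gene of the 4 groups reaches 1.5-fold higher, and neither does any in the lists of retrograde factors and of transcription factors.

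Other genes of the route, listed by role, lay closer to the whole table when pooled, though not list by list. Across 5 lists with 95 genes the median log2 ratio was -0.18, and 18 genes passed the lower 1.5-fold limit (18.9%, against 13.4% of all genes) and 4 the upper (4.21%, against 10.8%). By list the medians ran from 0.08 to -0.59, and those of Golgi tethers and of transcription factors lay further below 0 than that of the COPI group, which for Golgi tethers turned round with the trend over length and GC content removed (-0.17, against -0.23 for COPI). Among 23 ER exit site factors the median was -0.01, and 0.03 after centring on the median of all genes. Ctage5, a partner of TANGO1 in collagen export, had 5.78 FPKM in the antagomir library and 11.1 FPKM in the control library, 1.79-fold lower. Yif1a had 25.2 FPKM in the antagomir and 48.3 FPKM in the control library, 1.88-fold lower, and Tmed1, another p24 gene, had 34.0 FPKM in the antagomir and 19.1 FPKM in the control library, 1.75-fold higher, both with exons overlapping another gene. With the trend over length and GC content removed, Tmed1 came under 1.5-fold at 0.56. In that setting no gene of the 5 lists passed the upper 1.5-fold limit, against 8.61% of all genes. Ier3ip1, with such an overlap too, was 1.45-fold higher.

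Among 13 genes around ARF the median was 0.08, and -0.01 over those without exon overlaps. Gbf1, the exchange factor that activates ARF1 for COPI, had 3.71 FPKM in the antagomir library and 7.02 FPKM in the control library, 1.70-fold lower, and Arfgef2, an exchange factor of the late Golgi, was 1.45-fold lower. The ARF genes Arf5 (80.9 FPKM in the antagomir library and 45.6 FPKM in the control library) and Arf2 (35.4 FPKM in the antagomir library and 25.9 FPKM in the control library) were 1.76-fold and 1.35-fold higher. Exons of Arf5 overlap Gcc1, and those of Gbf1 an antisense gene. With the trend removed the log2 ratio of Arf5 was 0.42, under 1.5-fold, and that of Gbf1 was -0.61.

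Golgi tethers, subunits of the COG and TRAPP complexes and golgins, had a median log2 ratio of -0.25 for the 30 listed, and 5 of them passed the lower 1.5-fold limit (16.7%, against 13.4% of all genes, a share near the background) and 2 the upper. Trappc8 and Trappc9, large TRAPP subunits, were 1.76-fold and 1.62-fold lower, and the small subunits Trappc1 and Trappc6a were 1.69-fold and 1.54-fold higher. With the trend over length and GC content removed these log2 ratios were -0.67, -0.62, 0.33 and 0.10. Retrograde tether and fusion factors had a median of -0.14 over 22 genes. Of these, 5 passed the lower 1.5-fold limit (22.7%, against 13.4% of all genes) and none the upper (10.8% of all genes). Napa, which encodes the adaptor alpha-SNAP that lets NSF take SNARE complexes apart, had 22.1 FPKM in the antagomir library and 51.1 FPKM in the control library, 2.26-fold lower. Gosr1 was 1.84-fold lower, Use1 1.39-fold higher and Ykt6 1.23-fold higher.

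All 7 transcription factors of secretory genes with values, of 10 listed, had ratios below 0, against 54.0% of all genes, with a median of -0.59 and 4 at least 1.5-fold lower (57.1%, against 13.4% of all genes). That count was 7 as TPM, 6 when rescaled to the total without hemoglobins, ribosomal proteins and genes of the mitochondrial genome and 3 after centring, against 20.0%, 19.2% and 11.6% of all genes. Atf6 had 13.8 FPKM in the antagomir library and 41.1 FPKM in the control library, 2.85-fold lower, and Xbp1 had 29.1 FPKM in the antagomir and 72.7 FPKM in the control library, 2.45-fold lower. Creb3 and Atf6b were 1.45-fold and 1.42-fold lower. RNA levels of these factors say nothing of the spliced or cleaved forms that act in the nucleus, which were not measured.

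Transcript length moved with the ratio among the trafficking genes as it did over the table. Length against log2 ratio gave a Spearman's rho of -0.51 across the 44 genes and -0.30 across 10192 genes, a description across genes of the same 2 libraries. When all genes were put in 5 equal groups by length, none of 7 and none of 11 trafficking genes in the shortest and next groups were at least 1.5-fold lower. In the middle, next longer and longest groups 4 of 9, 5 of 12 and 3 of 5 were. From the shortest to the longest group, the shares of all genes at least 1.5-fold lower were 7.21%, 12.4%, 13.9%, 15.9% and 17.5%. The median of the trafficking genes lay below that of all genes in each group: -0.15 against 0.26 in the shortest, -0.06 against 0.01 in the next, -0.47 against -0.07 in the middle, -0.55 against -0.14 in the next longer and -0.73 against -0.20 in the longest. With the trend over length and GC content removed, 10 of 44 genes were at least 1.5-fold lower (22.7%, against 12.3% of all genes) and the median was -0.34, against -0.02. Sec24a (-0.55) and Lman1 (-0.50) then came under the limit, and Mia3 (-1.13), Tmed5 (-0.92), Sec24d (-0.89) and Sec16a (-0.85) had the lowest values. Length against the trend-removed ratio still gave a Spearman's rho of -0.25 across the 44 genes.

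**Figure D4:**
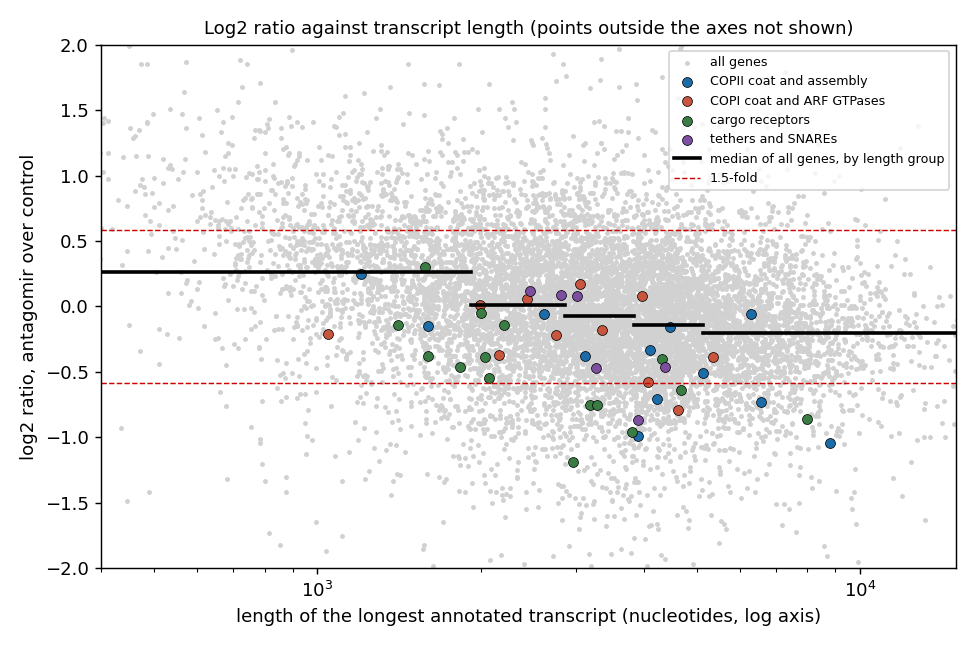
Log2 ratio of each gene (vertical axis) against the length of its longest annotated transcript in nucleotides (log axis), with all genes in grey, the 44 trafficking genes in colour, black bars for the median of all genes in each of 5 length groups and dashed lines at 1.5-fold. Medians of all genes step from 0.26 in the shortest to -0.20 in the longest group, and the 12 trafficking genes below the lower dashed line all lie in the 3 groups of longer transcripts.

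The lengths are those of GENCODE release M21 and need not be the transcripts behind the FPKM. For Mia3 the longest annotated transcript has 2961 nucleotides, and for Tmed7 7982 nucleotides with a shorter principal transcript, whose use moved its trend-removed ratio from -0.67 to -1.04. Exons of 15 of the 44 genes overlap those of another gene, among them 5 of the 12 that were at least 1.5-fold lower. Without these 15 genes 7 of 29 were at least 1.5-fold lower (24.1%, against 13.9% of the 6349 genes without overlaps). The median was -0.38, against -0.04 over those 6349 genes. The 7 were Mia3, Sec16a, Sec24d, Sec24a, Sec31a, Lman1 and Uso1.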

How the data were processed

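Per the file headers, the deposited table gives 1 FPKM value per gene and library. Per the submitters' processing notes, cutadapt, HISAT2 and StringTie 1.3.3 were used on build GRCm38. The annotation, settings and use of strand were not given in the sources used. FPKM depends on the library total and on transcript length. Low values multiplied by length gave whole multiples of no common unit (at most 18.5% of values within 0.05 of a whole number, 10% if uniform), so depth is unknown and no interval was computed.

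Symbols on more than 1 line (10, none a member) were summed. Ratios used a pseudocount of 1. It was kept for values rescaled to TPM or to the total without the gene families named above, which are larger than FPKM. Counts over genes used a minimum of 1 FPKM in the higher library. Members at least 1.5-fold or 2-fold apart were counted. The members and lists were chosen with earlier results of these data known. All members are named, and from each other list the 2 highest and 2 lowest genes reaching 5 FPKM and any there with a 2-fold difference. A planned comparison of protein sequences was not made.

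Lengths, GC content and exon overlaps came from GENCODE release M21 (GRCm38), which held 10982 of 10992 gene IDs. The trend was a quadratic in log2 length and GC content. Shared sequence is the share of 50-base stretches of the longest transcript also present in transcripts of another gene. Promoter windows came from RefSeq. Computation used Python 3.11.15, pandas 2.3.3, numpy 2.4.6, scipy 1.17.1 and matplotlib 3.10.9, and the scripts were checked on artificial data with known shifts.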

Additional observations from a re-analysis of the deposited data

How the results depend on the processing

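No paired analysis was possible because each group had 1 library. The median log2 ratio of all 44 genes stayed between -0.47 and -0.33 under every alternative run. The count at least 1.5-fold lower stayed between 10 and 15, except for 7 of 29 genes without exon overlaps (24.1%, against 13.9% of all genes). The share of all genes moved with it. As TPM the count was 15 (34.1%, against 20.0% of all genes). Centred on the median of all genes it was 12 (27.3%, against 11.6%). With the trend over length and GC content removed it was 10 (22.7%, against 12.3%). Genes at least 2-fold lower numbered 5 with pseudocounts of 0.1 or 0.01, against 6.22% and 6.63% of all genes. They also numbered 5 as TPM, or rescaled to the total without 3 abundant gene families (hemoglobins, ribosomal proteins and genes of the mitochondrial genome), against 6.78% and 6.59%. After centring on the median of all genes they numbered 1 of 44 (2.27%), against 3.34% of all genes. Removal of the length and GC trend by longest transcripts also left 1, against 3.75% of all genes. The median of tethers and SNAREs was -0.46 at a minimum of 5 FPKM and 0.09 without overlapping genes. In both cases fewer genes entered. No member past 1.5-fold turned its sign under any alternative. Arcn1 passed 1.5-fold with both smaller pseudocounts (-0.62 and -0.63), and Arcn1, Sec24b and Tmed2 passed under TPM and the rescaling. Sec24a and Lman1 came under it without the trend.

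For the other lists the cause of shifts was not tested. The median of ER exit site factors was -0.10 as TPM, 0.03 centred, -0.07 rescaled, -0.06 with the trend removed by longest or by principal transcripts, and -0.01 without overlapping genes. That of ARF regulators was 0.01, 0.13, 0.04, 0.02, 0.03 and -0.01 in the same order of settings, with longest before principal transcripts. Retrograde factors had -0.21 with a pseudocount of 0.01, -0.27 at the minimum of 5 FPKM, -0.26 as TPM, -0.09 centred, -0.25 rescaled, and -0.04 or -0.07 with the trend removed. Golgi tethers had -0.17 or -0.15 with the trend removed. The settings with principal transcripts and without members that share at least 10% of their stretches were chosen after seeing the data. The latter left 38 genes with a median of -0.38. Without read numbers, no difference between the libraries can be set against counting error.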
